A study of Mus musculus with 52 samples.

Results

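Rosiglitazone (Rosi, 100 nM), a drug that activates the nuclear receptor PPARγ, was added to primary mouse bone marrow cultures, and their RNA on day 4 of exposure was compared with that on day 1. The members are 8 of the 52 arrays of the series, chosen by their titles: 4 Rosi arrays of day 4 and 4 Rosi arrays of day 1. Each group holds 1 array from each of the pools numbered 12, 15, 19 and 20, and a pool joined marrow of 2 to 4 animals before plating. All animals were female C57BL/6J mice aged 8 weeks. Every culture, treated or not, was switched on day 7 after plating to osteoinductive α-MEM with dexamethasone (10 nM), insulin (0.5 µg/ml), β-glycerol phosphate (8 mM) and ascorbate (12.5 µg/ml), and the compounds were added with that medium. The 4 vehicle arrays of day 1 and the 4 of day 4, which received DMSO at 0.1%, carry the same medium and days in culture and are set beside the Rosi change. The labels say nothing of medium changes between day 1 and day 4, and time in culture and length of exposure cannot be told apart within the Rosi arrays. The cultures were unsorted, and the labels call them mesenchymal stromal cells differentiated for osteogenesis.

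PPARγ forms a heterodimer with RXR and is the main switch of fat cell formation. A bone marrow stromal progenitor can become a fat cell or a bone-forming osteoblast, and activation of PPARγ is known to favour fat in marrow and to lower bone formation. Fat formation runs in steps: growth arrest, early PPARγ targets such as the lipid chaperone Fabp4, and later the genes for lipid storage and insulin response. In brown and beige fat, PPARγ works together with coactivators such as PGC-1α (Ppargc1a) on genes of mitochondria and heat production.

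Values are log2 values of the deposited table. The 4 values of a group always follow the order pools 12, 15, 19 and 20, and a value with ± after a gene symbol is a log2 difference, day 4 minus day 1, with its SE. A † follows where at least 2 of the 4 arrays of the lower group lay under 4.05, the median of the table, since signals there approach background and the fold is then poorly known. Rose and fell are used of genes whose limma p, adjusted over all 14911 genes tested, was under 0.05. A p given for a pool left out or for another fit is limma's adjusted p as well. Array medians ran from 3.97 to 4.15, and precision is limited by having 4 arrays a group.

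The day 4 Rosi array of pool 15 stood apart from the other 3. The 22 tested genes of adipocyte identity averaged 10.17, 9.44, 10.13 and 10.10 on the 4 day 4 arrays, against 7.87, 7.84, 7.68 and 7.8 at day 1, so that this array was lowest while still above every day 1 array. For 21 macrophage markers the day 4 means were 8.64, 9.78, 8.29 and 8.25, and on this array they lay above all 4 day 1 means (9.70, 9.57, 9.56 and 9.38). The 11 T and NK cell genes averaged 4.79, 5.97, 4.03 and 4.00 at day 4, and the 16 endothelial genes 7.13, 5.71, 6.62 and 6.77, where the array of pool 15 was the highest and the lowest of the 4. In vehicle at day 4 the T and NK cell means were 6.63, 5.28, 4.18 and 4.12, highest in pool 12. Values without the day 4 Rosi array of pool 15 are therefore given where they move a result, a choice made after seeing the data. The vehicle day 4 array of pool 12 was the lowest of its group in several lists of stroma and bone. Vehicle means of pool 12 went from 9.69 to 8.80 for collagens and matrix and from 8.54 to 7.98 for osteoblast genes. They went from 6.68 to 6.34 for Wnt and from 7.67 to 6.95 for TGFβ and BMP genes. In vehicle these lists were higher at day 4 in pools 19 and 20, and mixed in pool 15. The cultures held blood-lineage cells next to stroma: at day 1 the macrophage genes Lyz2 (lysozyme) and Csf1r (the M-CSF receptor) averaged 12.31 and 10.96, while the stromal genes Col1a2 and Cxcl12 averaged 11.73 and 12.08. In such bulk RNA, fewer cells of a type and less RNA per cell cannot be told apart.

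**Figure D1:**
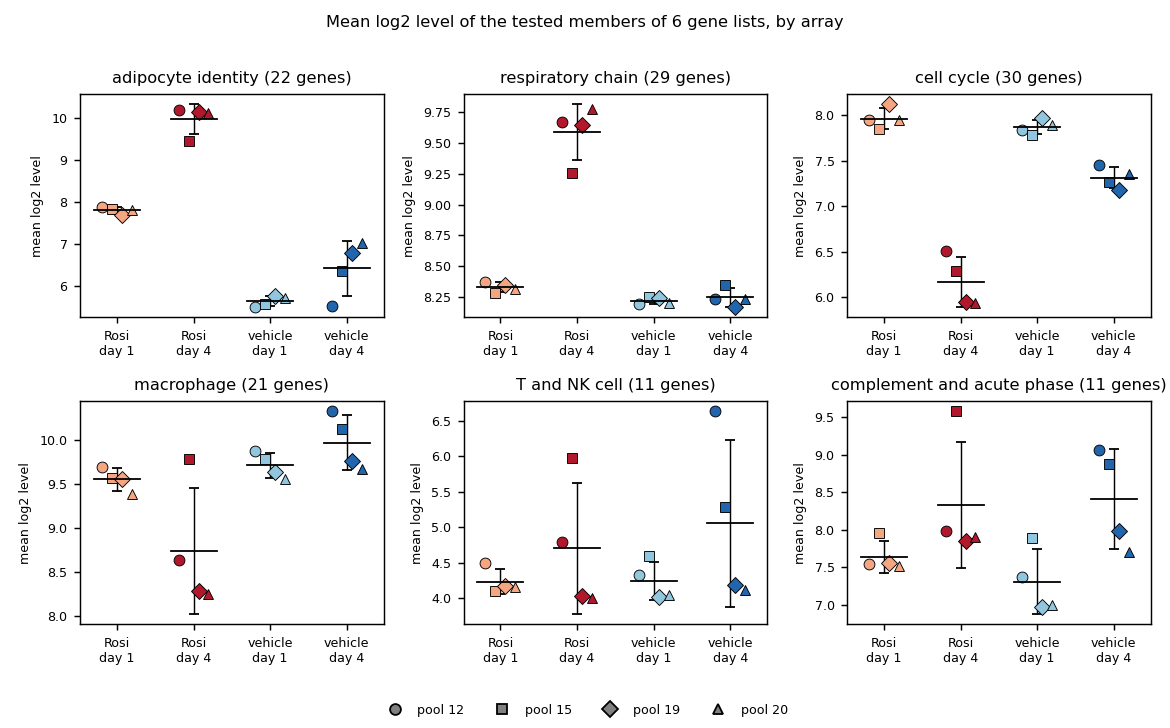
Mean log2 level (vertical axis) of the tested members of 6 gene lists on each of the 16 Rosi and vehicle arrays, grouped by treatment and day; symbols mark the 4 pools, bars the group mean and whiskers the SD. Rosi day 4 stands apart from the other groups for adipocyte, respiratory chain and cell cycle genes, and its pool 15 array (square) is the highest of the 4 in the macrophage, T and NK cell and complement lists.

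The Rosi cultures changed widely between the days. 2972 genes rose and 3944 fell, 46.4% of the genes tested (19.9% rises and 26.5% falls). In vehicle 686 genes rose (4.6%) and 1236 fell (8.29%), or 12.9% together. Vehicle calls moved with the fit: 568 with only the arrays compared, 785 without pool 19 and 834 without pool 20. With only the arrays compared, the vehicle calls named below for Acta2, Angptl4, C1qtnf3, C4b, Cd79a, Cdh11, Cdkn1a, Cidec, Cnn1, Col4a1, Col4a2, Dlx3, Elovl6, Ifitm5, Lepr, Ms4a1, Plin1, Plin4, Serpina3n, Tnfrsf9 and Trarg1 ended, at adjusted p from 0.0503 to 0.222. In that fit vehicle falls numbered 1 of 15 contractile genes, 0 of 32 collagens and matrix genes and 0 of 22 adipocyte identity genes, and vehicle rises 3 of 22 adipocyte identity, 0 of 19 osteoblast, 0 of 25 Wnt, 1 of 26 TGFβ and BMP, 1 of 32 collagens and matrix, 1 of 16 marrow stromal and 4 of 11 complement genes, all fewer than given below. After cyclic loess between arrays 909 genes rose and 974 fell in vehicle, and 3436 rose and 3405 fell with Rosi. Ranges of list counts given below are those found when 1 pool at a time was left out. The Rosi change differed from the vehicle change (interaction) for 4480 genes (30%), 2149 with a more positive and 2331 with a more negative Rosi change. That count fell to 2406 without pool 20 and 2704 without pool 19, and was 5140 with the replicate block. Over all genes tested the median log2 difference was -0.036 with Rosi and 0.012 in vehicle. A count for a gene list is to be read against these shares, since 46.4% of all genes passed. All counts are of genes tested, and 4 genes, none in a list, passed the filter on low values through the Rosi day 4 arrays alone.

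**Figure D2:**
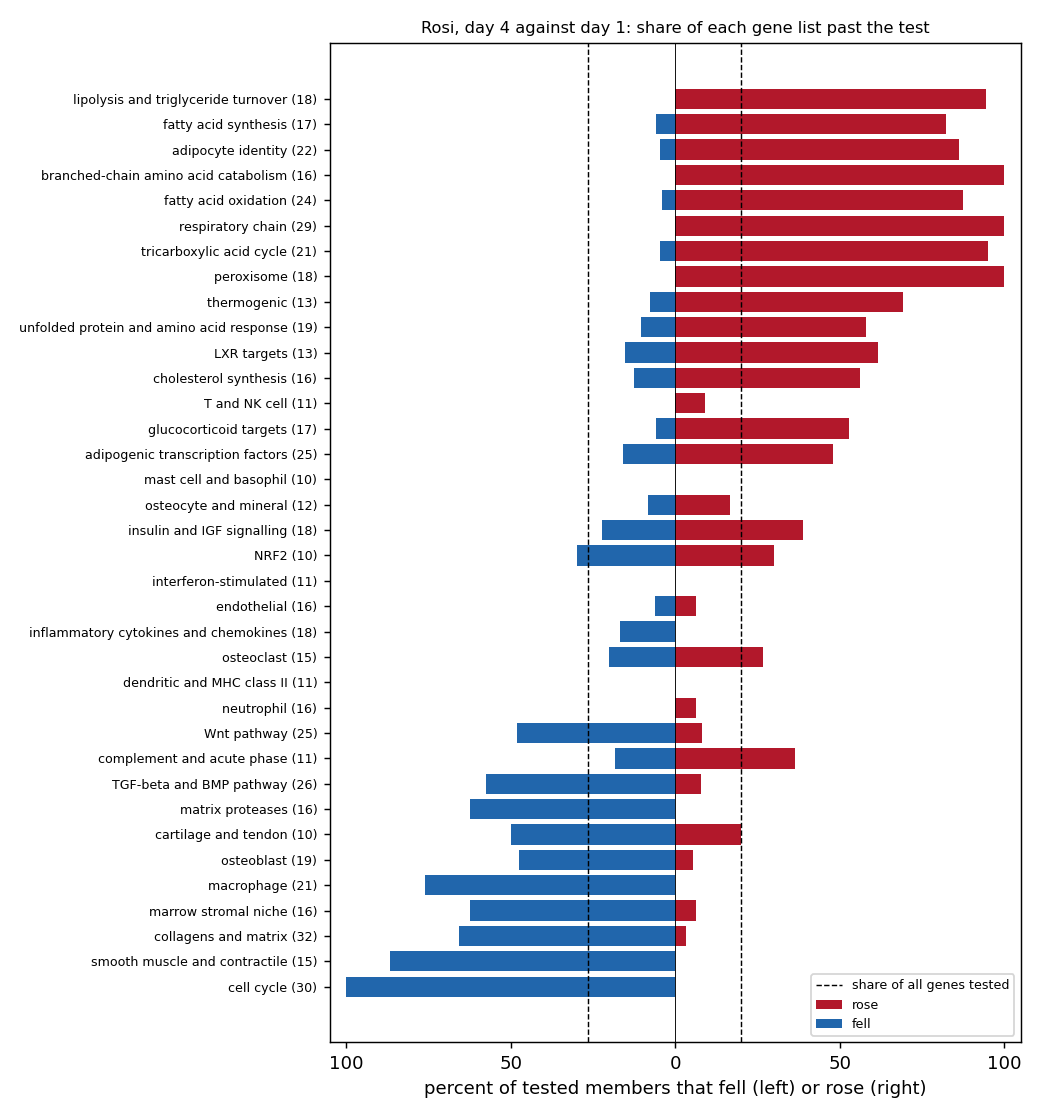
Percent of the tested members of each gene list (number in brackets, lists of at least 10) that rose (right) or fell (left) from day 1 to day 4 with Rosi, ordered by the list's median difference. Dashed lines give the shares over all genes tested, 19.9% rises and 26.5% falls; all members rose in the respiratory chain, branched-chain amino acid and peroxisome lists and all fell in the cell cycle list.

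The largest rises included genes of brown and beige fat. Elovl3, an elongase of very long chain fatty acids, read 2.53, 2.74, 3.26 and 3.27 at day 1 and 10.28, 8.18, 11.03 and 10.87 at day 4 (7.14 ± 0.53†, adjusted p = 4.11e-14). Cox8b, a cytochrome oxidase subunit of brown fat and muscle, read 2.99, 2.96, 2.84 and 3.10 at day 1 and 9.81, 8.19, 9.76 and 9.95 at day 4 (6.46 ± 0.51†, adjusted p = 1.65e-13). For both genes every day 1 array was under the table median and every day 4 array far above it, lowest in pool 15. Cidea, a lipid droplet protein of brown fat, went from 3.57, 3.88, 3.97 and 3.83 to 9.29, 6.45, 9.58 and 9.30 (4.84 ± 0.48†, adjusted p = 3.73e-11), or 5.58 without the pool 15 array. Ppargc1a, the coactivator named above, went from 3.54, 3.88, 3.48 and 3.56 to 7.84, 6.71, 8.31 and 8.64 (4.26 ± 0.30†, adjusted p = 1.5e-14). The groups did not overlap in any of the 4 genes, as was so for 37.9% of all genes tested. Ucp1, the uncoupling protein that makes brown fat produce heat, behaved differently: it read 3.19, 3.39, 3.33 and 3.55 at day 1 and 4.70, 3.12, 5.00 and 4.59 at day 4. Its day 4 arrays of pools 12, 19 and 20 were less than 1 log2 unit above the table median and that of pool 15 was below all 4 day 1 arrays. The test called the rise (0.99 ± 0.20†, adjusted p = 6.26e-05), but not when only the arrays compared were fitted (adjusted p = 0.0504).

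Of the 13 thermogenic genes tested 9 rose and 1 fell, with a median difference of 0.99 (1.39 without the pool 15 array). Cox7a1, another oxidase subunit, rose (4.06 ± 0.31), as did Otop1 (1.14 ± 0.18) and Letmd1 (0.93 ± 0.15). Prdm16, a regulator of the brown fat programme, was called as a fall (-0.43 ± 0.15, adjusted p = 0.0202). That call ended without pool 15 (adjusted p = 0.0558), without pool 20 (0.0955) with only the arrays compared (0.0554) or with the mean of its probe sets (0.089), as it did without the pool 15 array at day 4 (0.14). The developmental factor Tbx1 (0.16 ± 0.15) and the beige marker Tmem26 (-0.24 ± 0.38) did not pass. In vehicle, 1 of the 13 rose, the receptor Tnfrsf9 (vehicle 0.97 ± 0.25), and not without pool 12 (adjusted p = 0.196). It was also called with Rosi (0.76 ± 0.25), not so without pool 15 (adjusted p = 0.0875) or 19 (0.0832).

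The other leaders among the rises have varied roles. Cyp2e1 (5.95 ± 0.32†) is a cytochrome P450, Chchd10 (5.32 ± 0.35) a small mitochondrial protein, Acacb (4.77 ± 0.46) the acetyl-CoA carboxylase of the mitochondrial surface, and Sptlc3 (4.62 ± 0.52) a subunit of the enzyme that begins sphingolipid synthesis. Thrsp (4.63 ± 0.71) is a lipogenic protein and Adig (4.73 ± 0.39†) a small adipocyte protein. Tmem45b (5.75 ± 0.42†), Tmem182 (4.73 ± 0.36) and Ankef1 (4.65 ± 0.31†) complete the 12 largest. Of the 12, 1 also rose in vehicle: Chchd10 (vehicle 1.69 ± 0.35), and its Rosi change was larger (difference of the changes 3.63 ± 0.49, adjusted p = 3.88e-07). Thrsp missed the threshold in vehicle (vehicle 1.93 ± 0.71†, adjusted p = 0.0632) and passed with the replicate block (0.00614).

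**Figure D3:**
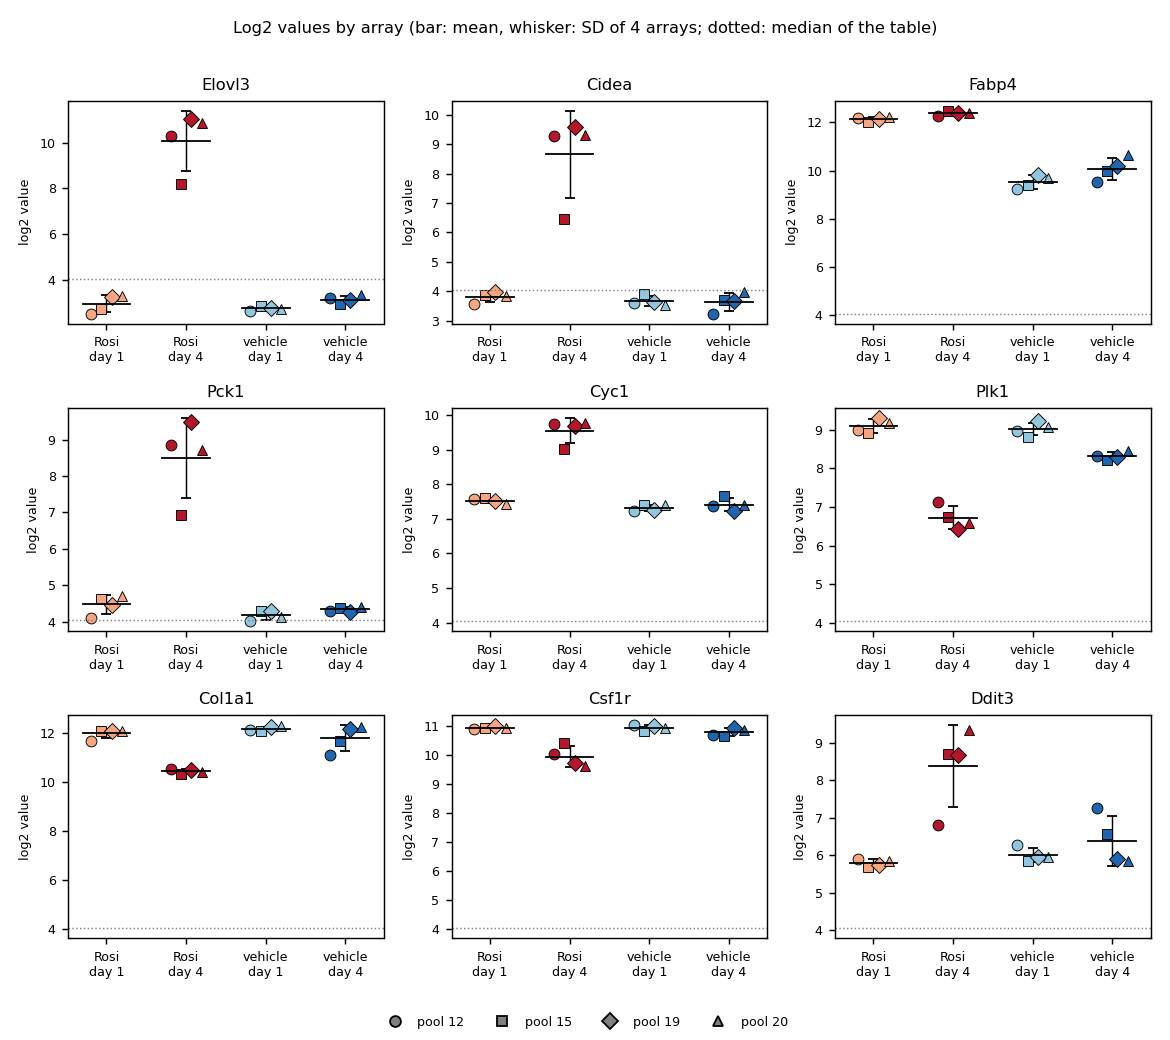
Log2 values (vertical axis) of 9 genes on the 4 arrays of each Rosi and vehicle group, with the group mean (bar) and SD (whisker); symbols mark the pools and the dotted line the table median, 4.05. Elovl3, Cidea, Pck1 and Cyc1 are high on the 4 Rosi day 4 arrays alone among these groups, Fabp4 is already high with Rosi at day 1, and Plk1, Col1a1 and Csf1r are lowest with Rosi at day 4.

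Genes of adipocyte identity rose further after day 1, but unevenly. Of the 22 tested, 19 rose and 1 fell (median 1.72). In vehicle 6 rose, 2 to 11 with 1 pool left out and 11 with the replicate block, and 2 fell (1 to 2). By the interaction test the Rosi change was more positive than vehicle's for 10 of the 22 and more negative for 1. Fabp4, the early target, read 12.18, 12.01, 12.14 and 12.25 at day 1 and 12.26, 12.49, 12.40 and 12.41 at day 4. Its groups do not overlap, yet the difference was small and missed the threshold (0.25 ± 0.20, adjusted p = 0.333). The day 1 mean was 12.14 with Rosi and 9.52 in vehicle. Other early genes rose by less than the median of the list: Lpl, lipoprotein lipase, by 0.45 ± 0.10 and Cd36, the fatty acid transporter, by 0.88 ± 0.16. Outside the list Angptl4, a secreted lipase inhibitor and early PPARγ target, gave -0.16 ± 0.18 and did not pass the test (adjusted p = 0.516), while it rose in vehicle (vehicle 0.70 ± 0.18), not so without pool 12 (0.243) or 15 (0.067).

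Larger differences were found in genes that were low at day 1. Pck1, the enzyme that starts glycerol synthesis for triglyceride, read 4.11, 4.62, 4.46 and 4.71 at day 1 and 8.85, 6.93, 9.50 and 8.72 at day 4 (4.02 ± 0.37, adjusted p = 5.07e-12). Lep, the hormone leptin, went from 3.26, 3.75, 3.17 and 3.27 to 6.20, 5.48, 5.51 and 5.30 (2.26 ± 0.37†, adjusted p = 1.63e-06). In both genes all day 4 arrays were above all day 1 arrays, and vehicle did not pass at 0.15 ± 0.37 and 0.09 ± 0.37†. Slc2a4, the insulin-responsive glucose transporter GLUT4, rose by 3.64 ± 0.38, Retn (resistin) by 3.3 ± 0.55 and Acvr1c, a receptor for activin-like ligands, by 4.53 ± 0.42†.

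Adipoq, the hormone adiponectin, rose in both treatments. With Rosi it read 9.30, 9.08, 8.74 and 8.86 at day 1 and 10.08, 9.96, 9.93 and 10.07 at day 4 (1.02 ± 0.33, adjusted p = 0.00936, and 0.0676 without pool 20). Vehicle went from 6.84, 6.43, 5.38 and 5.06 to 7.61, 8.71, 8.71 and 8.76 (vehicle 2.52 ± 0.33), pool 12 lowest at day 4, and the difference of the changes was -1.5 ± 0.46 (adjusted p = 0.0114, but 0.0542 without pool 15 and 0.177 without pool 20). All 4 Rosi day 1 arrays were above all 4 vehicle day 1 arrays. The lipid droplet genes Plin1 and Cidec also rose in both when all arrays were fitted, Plin1 by 1.83 ± 0.42 with Rosi and 1.75 ± 0.42 in vehicle, and the changes did not differ by the test (0.08 ± 0.60, adjusted p = 0.942). Plin4, another droplet coat protein, rose with Rosi (1.51 ± 0.26) and fell in vehicle (vehicle -1.0 ± 0.26, adjusted p = 0.0524 without pool 20). The vehicle rise of Plin1 was not called without pool 19 (0.0586) or 20 (0.0702). Cidec gave 3.18 ± 0.80 with Rosi and 2.34 ± 0.80† in vehicle, its vehicle call ending with only the arrays compared (adjusted p = 0.134), with no filter (0.0611) and without pool 15 (0.201), 19 (0.188) or 20 (0.0831). The gene of the list that fell with Rosi was Nnat, neuronatin (-0.71 ± 0.16).

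Among 25 adipogenic transcription factors 12 rose and 4 fell (median 0.24, or 0.39 without the pool 15 array), set against 19.9% of rises and 26.5% of falls over all genes. The falls numbered 2 to 5 with 1 pool left out and 1 with a stricter filter on low values. Pparg itself read 9.47, 9.43, 9.54 and 9.70 at day 1 and 10.27, 9.90, 10.23 and 10.29 at day 4, a modest rise without overlap (0.64 ± 0.14, adjusted p = 0.000137) that differed from the vehicle change (0.65 ± 0.19, adjusted p = 0.00862), though not without pool 12 (0.101). Cebpa, its partner in the adipocyte programme, rose by 0.49 ± 0.15. Factors of carbohydrate and lipid synthesis rose more, Mlxipl (ChREBP) by 2.64 ± 0.26 and Srebf1 by 1.23 ± 0.19. Klf15 (1.73 ± 0.23), the RXR isoform Rxrg (1.27 ± 0.18†) and the LXRα gene Nr1h3 (1.03 ± 0.15) rose too. The early factor Cebpd fell (-0.61 ± 0.17†, adjusted p = 0.00257, and 0.0544 without pool 19), while Cebpb rose (0.97 ± 0.16). Zfp423 (0.21 ± 0.17), Ebf1 (-0.04 ± 0.20) and the RXR isoform Rxra (0.12 ± 0.09) did not pass; Rxra did without pool 15 (adjusted p = 0.0335).

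Genes that build and break down triglyceride rose nearly throughout. Of 18 tested, 17 rose and 0 fell (median 1.94), while 3 of the 18 rose in vehicle (0 to 4 with 1 pool left out, 7 with the replicate block). For 12 of the 18 the Rosi change was larger by the interaction test (11 to 13 with 1 pool left out). Synthesis was represented by Gpat3 (2.42 ± 0.30), Agpat2 (2.77 ± 0.25) and Lpin1 (2.72 ± 0.27), which act in that order from glycerol phosphate, and by Dgat1 (1.77 ± 0.26) and Dgat2 (1.98 ± 0.38), which both catalyse the last step to triglyceride. Breakdown was represented by Pnpla2 (ATGL, 1.37 ± 0.19), Lipe (hormone-sensitive lipase, 1.89 ± 0.26) and Mgll (monoglyceride lipase, 2.79 ± 0.30). Both arms thus rose in these RNA data. Hilpda, an inhibitor of ATGL, did not pass (0.19 ± 0.15, adjusted p = 0.333), and G0s2, another ATGL inhibitor, rose by 0.95 ± 0.23.

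Genes of fatty acid synthesis rose as well. Of 17 genes tested, 14 rose and 1 fell (median 1.87), and for 13 the Rosi change was larger than vehicle's by the interaction test, which 14.4% of all genes passed in that direction. Fasn, fatty acid synthase, read 9.54, 9.50, 9.86 and 9.78 at day 1 and 12.36, 11.53, 12.36 and 12.29 at day 4 (2.46 ± 0.27, adjusted p = 4.51e-10), with pool 15 lowest at day 4. Acaca (1.87 ± 0.25) makes the malonyl-CoA that Fasn uses, Acly (1.28 ± 0.19) and Acss2 (3.07 ± 0.29) make acetyl-CoA, and Me1 (2.15 ± 0.26) makes NADPH. Scd1, the delta-9 desaturase, rose by 1.01 ± 0.28 from a day 1 mean of 11.55. The elongase Elovl6 was the member that fell (-0.94 ± 0.22), and it fell in vehicle as well (vehicle -0.75 ± 0.22), though not without pool 12 (0.15) or 20 (0.0894).

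Genes of the mitochondrial respiratory chain rose as a block. All 29 tested rose, with differences between 0.60 (Atp5c1) and 2.02 (Cyc1) and a median of 1.29 (1.40 without the pool 15 array). In vehicle limma called 0 of the 29 (median 0.026), with or without the replicate block, and 0 had an unadjusted p under 0.05, and all 29 passed the interaction test. The members cover NADH dehydrogenase (Ndufb3 1.84 ± 0.19, Ndufs1 1.58 ± 0.14), complex III (Uqcrfs1 1.56 ± 0.18), cytochrome oxidase (Cox4i1 1.54 ± 0.13, Cox5a 1.29 ± 0.12) and ATP synthase (Atp5b 0.70 ± 0.08). The largest difference was that of Cyc1, cytochrome c1 of complex III, which read 7.57, 7.61, 7.51 and 7.42 at day 1 and 9.74, 9.01, 9.69 and 9.77 at day 4 (2.02 ± 0.18, adjusted p = 2.93e-12). The day 1 arrays were close together and the day 4 arrays all higher, pool 15 least.

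The tricarboxylic acid cycle, which feeds electrons to that chain, followed: of 21 genes tested 20 rose and 1 fell (median 1.27). In vehicle limma called 0 of the 21, and 0 had an unadjusted p under 0.05. Subunits of pyruvate dehydrogenase led (Dlat 2.26 ± 0.23, Pdhb 2.18 ± 0.22) together with Pcx, pyruvate carboxylase (2.52 ± 0.34). Citrate synthase (Cs) rose by 1.27 ± 0.16, and the NAD-linked isocitrate dehydrogenase subunits Idh3a and Idh3b by 1.80 ± 0.21 and 1.44 ± 0.13. Idh2, the NADP-linked isoform, was the member that fell (-0.32 ± 0.06, adjusted p = 2.93e-05).

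Of 24 genes of fatty acid oxidation tested 21 rose and 1 fell (median 1.31), or 2 falls without pool 15. The matrix enzymes Acadvl (1.70 ± 0.20), Acadl (1.57 ± 0.16) and Eci1 (2.37 ± 0.22) rose, as did Slc25a20, the carrier of acylcarnitine (1.73 ± 0.18), and Cpt2 (1.12 ± 0.23). Cpt1a, the entry enzyme of the liver type, fell (-0.61 ± 0.15, adjusted p = 0.000647) while vehicle did not pass (0.32 ± 0.15), and the changes differed (-0.93 ± 0.21, adjusted p = 0.000611). The uncoupling protein homologue Ucp3 rose by 2.81 ± 0.25†.

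Catabolism of valine, leucine and isoleucine, a source of acetyl-CoA in fat cells, rose in all 16 genes tested (median 1.59), and 3 of the 16 rose in vehicle (0 to 2 with 1 pool left out). Bckdhb, a subunit of the branched-chain ketoacid dehydrogenase, read 7.23, 7.43, 7.34 and 7.25 at day 1 and 9.72, 9.10, 9.80 and 9.78 at day 4 (2.29 ± 0.21, adjusted p = 8.07e-12). The other subunits Bckdha (1.96 ± 0.21) and Dbt (1.68 ± 0.17), the transaminase Bcat2 (1.89 ± 0.19) and, further along, Hibch (2.29 ± 0.24), Mccc2 (1.82 ± 0.18) and Aldh6a1 (2.37 ± 0.25) rose. All 16 changes exceeded those in vehicle by the interaction test, but 12 to 15 did with 1 pool left out.

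Peroxisomes, which shorten very long chain fatty acids, were represented by 18 genes tested, and all 18 rose (median 1.15); Cat (catalase) rose least and lost the call without pool 12 (0.134), 19 (0.102) or 20 (0.14). Ehhadh, the bifunctional enzyme of peroxisomal oxidation, read 5.52, 5.76, 5.58 and 5.37 at day 1 and 8.76, 7.02, 8.91 and 8.71 at day 4 (2.79 ± 0.33, adjusted p = 2.44e-09). The thiolase Acaa1b (3.07 ± 0.28), Pex11a, which promotes peroxisome division (1.90 ± 0.21), and the membrane assembly factors Pex3 (1.18 ± 0.11) and Pex19 (1.33 ± 0.15) also rose. In Ehhadh as in Bckdhb, Cyc1 and Fasn, the day 4 array of pool 15 was the lowest of the 4 and still above every day 1 array. For 14 of the 18 peroxisome genes the Rosi change exceeded vehicle's by the interaction test (13 to 14 with 1 pool left out).

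**Figure D4:**
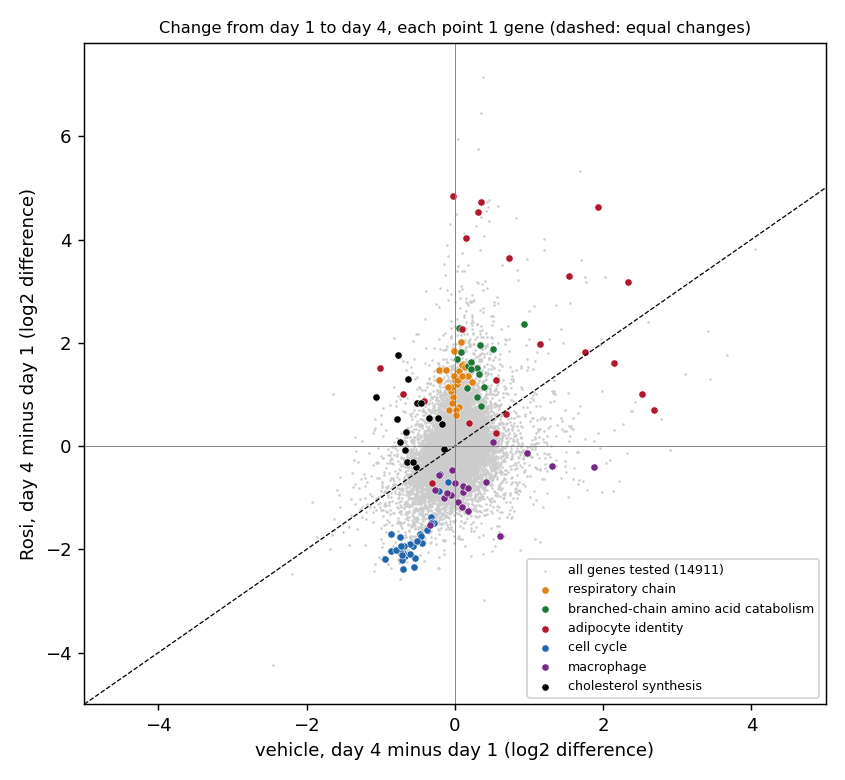
Each point is 1 gene: the log2 difference, day 4 minus day 1, in vehicle (horizontal) against that with Rosi (vertical), for all 14911 genes tested (grey) and 6 lists (colour); the dashed line marks equal changes. Respiratory chain genes lie above 0 with Rosi and near 0 in vehicle, cell cycle genes lie below 0 in both and lower with Rosi, and cholesterol synthesis genes lie left of 0.

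Genes of cell division fell without exception. All 30 tested fell with Rosi (median -1.92, or -1.96 without the pool 15 array) and 21 of the 30 fell in vehicle (median -0.58, 13 without pool 19 or pool 20). For 29 the Rosi fall was greater by the interaction test, which 15.6% of all genes passed in that direction. Plk1, a kinase that drives mitosis, read 9.0, 8.92, 9.31 and 9.19 at day 1 and 7.13, 6.73, 6.44 and 6.58 at day 4 (-2.38 ± 0.16, adjusted p = 2.9e-15). Vehicle went from 8.98, 8.82, 9.22 and 9.07 to 8.32, 8.21, 8.31 and 8.45 (vehicle -0.70 ± 0.16, adjusted p = 0.00201), so the groups were apart in both treatments and further apart with Rosi (difference of the changes -1.68 ± 0.22, adjusted p = 2.69e-07). Mki67, the proliferation antigen Ki-67, read 9.47, 9.28, 9.74 and 9.53 at day 1 and 8.26, 7.36, 7.37 and 7.30 at day 4 (-1.94 ± 0.17), with pool 12 highest at day 4. Other genes of mitosis that fell were Bub1 (-2.34 ± 0.20), Ccnb2 (cyclin B2, -2.17 ± 0.17) and Kif20a (-2.06 ± 0.15). Genes of DNA replication fell as well, among them Rrm2 (-2.20 ± 0.16), Mcm5 (-1.63 ± 0.18) and Mcm2 (-1.48 ± 0.17), and the G1 cyclin Ccne1 fell least (-0.54 ± 0.13). Outside the list, Ect2 (-2.38 ± 0.17), Shcbp1 (-2.58 ± 0.23), Ckap2 (-2.37 ± 0.19) and Prr11 (-2.29 ± 0.16), all among the 12 largest falls, act in cell division or are expressed with it. The cell cycle inhibitor Cdkn1a (p21) rose with Rosi (0.55 ± 0.08) and in vehicle (vehicle 0.33 ± 0.08, adjusted p = 0.0501 without pool 19).

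The 250 bases upstream of the start sites of 3 of these genes are shown because the members moved together and carry letters known from promoters of mitotic genes. Cdc20 activates the ubiquitin ligase of anaphase and fell by 2.11 ± 0.15, Kif11 is the spindle motor Eg5 and fell by 2.09 ± 0.17, and Top2a is topoisomerase IIα and fell by 1.90 ± 0.17. Sequences are from RefSeq on GRCm38.p6, written 5′ to 3′ on the strand of the gene, with capitals for TTTGAA (the CHR element) and CCAAT (the CCAAT box), or TTCAAA and ATTGG where they lie on the other strand.
Cdc20, chr4:118437344-118437593 (minus strand): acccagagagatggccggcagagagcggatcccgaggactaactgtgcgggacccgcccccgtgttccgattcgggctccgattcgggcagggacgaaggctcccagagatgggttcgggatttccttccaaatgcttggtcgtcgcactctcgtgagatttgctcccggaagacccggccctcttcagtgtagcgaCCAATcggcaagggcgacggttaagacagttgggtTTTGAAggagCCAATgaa
Kif11, chr19:37376132-37376381 (plus strand): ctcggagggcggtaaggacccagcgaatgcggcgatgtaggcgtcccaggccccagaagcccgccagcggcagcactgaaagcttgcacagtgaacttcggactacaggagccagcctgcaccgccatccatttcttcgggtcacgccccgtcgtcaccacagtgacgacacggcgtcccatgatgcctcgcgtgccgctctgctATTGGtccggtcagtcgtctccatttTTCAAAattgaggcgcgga
Top2a, chr11:99024190-99024439 (minus strand): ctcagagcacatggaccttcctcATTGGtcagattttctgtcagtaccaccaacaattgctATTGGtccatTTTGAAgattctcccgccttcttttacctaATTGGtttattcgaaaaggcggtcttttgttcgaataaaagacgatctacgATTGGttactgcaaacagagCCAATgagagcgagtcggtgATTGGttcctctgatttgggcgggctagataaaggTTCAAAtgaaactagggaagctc
Of the 30 genes, 25 matched a promoter of that table. CCAAT was found on either strand in 20 of them (80%), against 39.3% of the 11614 genes tested that had a window. TTTGAA was found in 8 (32%), against 12.9%. Among all 3156 genes that fell and had a window the shares were 40.6% and 12.9%, and among the 2419 that rose 40.1% and 12.6%. Lists that rose differed in their CCAAT share. It was 57.9% for the tricarboxylic acid cycle (11 of 19), 57.1% for branched-chain amino acid catabolism (8 of 14) and 53.8% for peroxisomes (7 of 13). In contrast it was 38.1% for fatty acid oxidation (8 of 21), 31.2% for triglyceride turnover (5 of 16) and 18.2% for the respiratory chain (4 of 22). TTTGAA reached 23.1% in the peroxisome list, so raised shares were not limited to genes that fell. These are matches of letters, not measured sites.

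Bone-forming genes fell in part. Of 19 osteoblast genes tested, 1 rose and 9 fell (median -0.74, or -0.98 without the pool 15 array), while 4 rose and 0 fell in vehicle (2 to 6 rises and 0 to 1 falls with 1 pool left out). Alpl, the alkaline phosphatase that starts mineralisation, read 10.10, 10.30, 9.82 and 10.03 at day 1 and 8.32, 8.30, 8.20 and 7.93 at day 4 (-1.87 ± 0.27, adjusted p = 2.24e-07). All day 4 arrays were below all day 1 arrays, vehicle gave -0.01 ± 0.27 (adjusted p = 0.991), and the changes differed (-1.87 ± 0.39, adjusted p = 0.000235). The osteoblast factors Dlx5 (-1.22 ± 0.24) and Sp7 (osterix, -1.36 ± 0.44) fell, Sp7 not without pool 19 (adjusted p = 0.0756). The mineralisation genes Ibsp (-0.63 ± 0.62) and Phex (-0.21 ± 0.49) did not pass. Dlx3 (0.17 ± 0.23) and Ifitm5 (0.25 ± 0.31) did not pass with Rosi but rose in vehicle (1.08 ± 0.23 and 1.93 ± 0.31), and these changes differed (-0.91 ± 0.32, adjusted p = 0.0277, and -1.68 ± 0.44, adjusted p = 0.00308). Without pool 20 neither difference passed (0.291 and 0.102), and without pool 15 or 19 that of Dlx3 did not (0.163 and 0.0702). The member that rose was Atf4 (1.02 ± 0.20), a factor of amino acid stress. Of 12 osteocyte and mineral genes 2 rose, Dmp1 (2.23 ± 0.92†, adjusted p = 0.0439) and Ank (0.83 ± 0.22), and Cthrc1 fell (-1.77 ± 0.33). The Dmp1 call ended without pool 12 (adjusted p = 0.177), 15 (0.0596) or 20 (0.0996), and without the day 4 array of pool 15 alone (0.188).

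Matrix genes fell broadly. Of 32 collagens and matrix genes, 1 rose and 21 fell (median -0.99), or 2 rises without pool 15 or its day 4 array and after cyclic loess, against 3 rises and 9 falls in vehicle. With 1 pool left out vehicle gave 2 to 6 rises and 2 to 7 falls. Col1a1, the main collagen of bone, read 11.71, 12.09, 12.09 and 12.11 at day 1 and 10.54, 10.32, 10.49 and 10.44 at day 4 (-1.55 ± 0.18, adjusted p = 1.49e-09), with pool 12 lowest at day 1 and no overlap. Col1a2 (-1.68 ± 0.16), Col3a1 (-1.80 ± 0.18), Col11a1 (-2.05 ± 0.32), the tenascin Tnc (-1.90 ± 0.30), the collagen binder Fmod (-2.36 ± 0.30) and the crosslinking enzyme Lox (-1.32 ± 0.14) fell too. Col15a1 was the rise (1.86 ± 0.35), and the basement membrane collagens Col4a1 and Col4a2 did not pass with Rosi (0.25 ± 0.21 and 0.43 ± 0.22, the latter passing as a rise without pool 15 at 0.0294) while they fell in vehicle (vehicle -1.11 ± 0.21 and -0.99 ± 0.22, the latter at adjusted p = 0.0525 without pool 12). Among 16 matrix proteases and their inhibitors 0 rose and 10 fell, or 6 falls without pool 19 and 1 rise without pool 12 or with the replicate block. They included Mmp13, the collagenase of bone (-2.02 ± 0.39), Mmp14 (-1.83 ± 0.18) and Mmp2 (-1.47 ± 0.23). Itga11, a collagen receptor (-2.43 ± 0.30), stood among the 12 largest falls, together with Angpt4 (-2.36 ± 0.26), the ATP-gated channel P2rx2 (-2.97 ± 0.39†) and the granzyme Gzmd (-4.24 ± 0.46†), which was the largest and also fell in vehicle (vehicle -2.46 ± 0.46).

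Contractile genes fell with Rosi and, when all 52 arrays were fitted, in vehicle. Of 15 tested, 0 rose and 13 fell with Rosi (median -1.17) and 0 rose and 12 fell in vehicle (median -0.73), and 4 of 15 Rosi changes were lower by the interaction test (1 to 7 with 1 pool left out). With only the arrays compared the vehicle falls numbered 1 instead of 12. Cnn1, calponin, read 8.21, 8.98, 9.35 and 9.05 at day 1 and 6.08, 6.08, 6.59 and 6.93 at day 4 with Rosi (-2.48 ± 0.36, adjusted p = 2.34e-07). In vehicle it read 9.95, 10.06, 10.63 and 10.65 at day 1 and 6.00, 8.02, 9.42 and 9.06 at day 4 (-2.19 ± 0.36, adjusted p = 6.57e-05, and 0.0932 with only the arrays compared). Pool 12 was lowest in the vehicle day 4 group. The changes did not differ by the test (-0.28 ± 0.51, adjusted p = 0.74), but did without pool 12 (0.0431). Acta2, smooth muscle actin, fell by 1.36 ± 0.18 with Rosi and 0.97 ± 0.18 in vehicle (adjusted p = 0.000229, and 0.113 with only the arrays compared).

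Genes of the marrow stromal niche, which support blood cell formation, separated the treatments by the test, but not in every pool. In vehicle the list averaged 8.39, 8.32, 7.93 and 8.00 at day 1 and 7.98, 8.48, 8.82 and 8.78 at day 4. Vehicle in pool 12 thus fell to near the level of Rosi, which went from 8.62 to 7.95 in that pool. Of 16 tested, 1 rose and 10 fell with Rosi (median -0.84), against 2 rises and 1 fall in vehicle (1 to 7 rises with 1 pool left out). The Rosi change was lower than vehicle's for 12 by the interaction test, 6 without pool 19 and 7 without pool 20. Pdgfra, a receptor of mesenchymal progenitors, read 9.78, 9.84, 9.80 and 9.71 at day 1 and 8.29, 8.64, 7.54 and 7.43 at day 4 (-1.81 ± 0.19, adjusted p = 2.21e-10). The day 4 arrays were all lower, those of pools 19 and 20 most, and vehicle missed the threshold (0.52 ± 0.19, adjusted p = 0.0692, 0.0399 with the replicate block). Cxcl12, the chemokine that holds blood stem cells, fell by 0.94 ± 0.12, Kitl (stem cell factor) by 0.90 ± 0.17 and Il7, a lymphocyte growth factor, by 1.48 ± 0.22. Tnfsf11 (RANKL), the osteoclast-inducing ligand, fell by 1.24 ± 0.25, and its decoy Tnfrsf11b (osteoprotegerin) did not pass (-0.33 ± 0.32). The rise was Cspg4, the proteoglycan NG2 (0.55 ± 0.17), not called without pool 19 (adjusted p = 0.0815). Lepr, the leptin receptor, did not pass with Rosi (-0.13 ± 0.54) but rose in vehicle (vehicle 2.32 ± 0.54), and the changes differed (-2.45 ± 0.77, adjusted p = 0.0129). Neither was called without pool 19 (0.0781 and 0.103) or 20 (0.11 and 0.164).

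Ligands and modulators of Wnt signalling, which favours bone over fat, mostly fell where they changed. Of 25 tested, 2 rose and 12 fell with Rosi, and 4 rose and 0 fell in vehicle (2 to 5 rises and 0 to 1 falls with 1 pool left out). The secreted inhibitors Sfrp1 (-2.09 ± 0.21), Sfrp2 (-1.49 ± 0.23) and Dkk3 (-2.10 ± 0.22) fell, and so did the amplifiers Rspo2 (-1.89 ± 0.19) and Rspo3 (-0.89 ± 0.20) and the ligand Wnt4 (-1.14 ± 0.24). Axin2, a target of the pathway, rose (0.64 ± 0.13), as did the receptor Fzd4 (1.07 ± 0.23). In the TGFβ and BMP pathway 2 rose and 15 fell of 26 tested, and 4 rose and 4 fell in vehicle (2 to 5 rises with 1 pool left out). The falls took in the ligands Tgfb1 (-0.83 ± 0.08) and Bmp4 (-1.29 ± 0.25), the receptor Tgfbr2 (-0.85 ± 0.09) and the target gene Id3 (-0.70 ± 0.18). The rises were Acvr1c, given above, and Bmp3 (2.40 ± 0.40), which also rose in vehicle (vehicle 2.61 ± 0.40†).

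Macrophage markers fell with Rosi. Of 21 tested, 0 rose and 16 fell (median -0.81), and 1 rose and 0 fell in vehicle (0 to 2 rises with 1 pool left out). The Rosi change was lower for 13 by the interaction test, 7 without pool 19 or pool 20. Without the pool 15 array at day 4, 18 fell and the median was -1.12. Csf1r read 10.92, 10.94, 11.03 and 10.96 at day 1 and 10.04, 10.43, 9.73 and 9.63 at day 4 (-1.0 ± 0.17, adjusted p = 3.64e-06), a fall without overlap that was least in pool 15. It differed from vehicle's change (-0.85 ± 0.24, adjusted p = 0.00579), though not without pool 19 (0.107) or 20 (0.122). Marco, a scavenger receptor, read 7.89, 7.01, 7.47 and 7.22 at day 1 and 5.37, 6.81, 5.38 and 5.05 at day 4 (-1.75 ± 0.38, adjusted p = 0.000194), and its pool 15 array at day 4 was near the day 1 arrays. Adgre1 (F4/80, -1.08 ± 0.19), Mrc1 (the mannose receptor, -1.25 ± 0.26), Maf (-1.18 ± 0.17) and Lyz2 (-0.95 ± 0.11) fell. The factor M-CSF (Csf1), made by stroma and needed by macrophages, fell by 0.99 ± 0.13.

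Counts for other blood and vessel cells were mixed. Among 7 B cell genes 0 rose and 5 fell, including Cd79a (-1.37 ± 0.36) and Ms4a1 (CD20, -1.76 ± 0.44†), and both fell in vehicle too (vehicle -1.26 ± 0.36 and -1.87 ± 0.44†), neither without pool 15 (0.133 and 0.0602) nor Cd79a without pool 20 (0.0864). The B cell genes averaged 7.49, 6.58, 6.45 and 6.38 at day 1 and 6.23, 5.63, 5.46 and 5.49 at day 4, highest in pool 12 at day 1. Of 8 megakaryocyte genes 4 rose and 0 fell, led by Itga2b (0.64 ± 0.15) and Gp9 (0.82 ± 0.23), and 1 fell without pool 15 or its day 4 array. For 11 T and NK cell genes 1 rose and 0 fell; the rise, Gzma (1.81 ± 0.65†), ended without the pool 15 array (adjusted p = 0.201), where 1 gene fell instead. Endothelial genes gave 1 rise and 1 fall of 16, Flt1 (1.10 ± 0.23), a VEGF receptor that fat cells can also express, and Eng (-0.34 ± 0.13), not called without pool 15 (0.236), 19 (0.091) or 20 (0.0721). Without the pool 15 array 3 endothelial genes rose and 0 fell, and the list median went from -0.038 to 0.33. Of 16 neutrophil genes 1 rose, Retnlg (1.81 ± 0.65, adjusted p = 0.0201), which was not called without pool 15 (0.0804), 19 (0.0606) or 20 (0.0878). Without pool 12, or with only the arrays compared, 4 of the 16 fell. Limma called 0 of 11 dendritic and MHC class II, 0 of 10 mast cell and basophil and 0 of 11 interferon-stimulated genes, and 0, 1 and 0 of these had an unadjusted p under 0.05. Without pool 12, 1 of the 11 dendritic genes fell, and of the mast cell genes 1 rose with the replicate block and 1 fell in a fit of the compared arrays alone. Of 4 erythroid genes the transferrin receptor Tfrc rose (0.99 ± 0.32), which dividing cells also use and which was not called without pool 19 (0.0727) or 20 (0.0552), and Epor fell (-0.62 ± 0.17). In the cartilage and tendon list 2 rose and 5 fell of 10, with Col2a1 (-1.92 ± 0.24) and Mkx (-1.02 ± 0.17†) among the falls and the factor Sox6 (0.82 ± 0.21†) among the rises, of which 1 was left without pool 19.

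Osteoclast genes did not move together. Of 15 tested, 4 rose and 3 fell with Rosi, 2 rising without pool 15 or without pool 19, 5 falling with the replicate block or without the pool 15 array, and 8 rose and 1 fell in vehicle. Ctsk, cathepsin K, read 7.19, 7.59, 7.18 and 6.79 at day 1 and 6.96, 7.47, 6.13 and 6.19 at day 4, with overlap, and missed the threshold (-0.50 ± 0.28, adjusted p = 0.149); it passed with the replicate block (0.0345) and without the pool 15 array (0.0264). In vehicle it rose from 7.71, 7.77, 7.31 and 7.49 to 9.17, 8.77, 8.94 and 9.38 (1.5 ± 0.28), and the changes differed (-2.0 ± 0.40, adjusted p = 0.000145). Dcstamp, a fusion protein of osteoclast precursors, did not pass with Rosi (0.30 ± 0.18) and rose in vehicle (1.5 ± 0.18), and the changes differed (-1.20 ± 0.25, adjusted p = 0.000259). Nfatc1, the master factor, and Tnfrsf11a (RANK), the receptor of RANKL, fell with Rosi (-0.97 ± 0.08 and -0.98 ± 0.14). Acp5 (1.08 ± 0.26) and Car2, carbonic anhydrase II (2.27 ± 0.25), rose in both treatments (vehicle 1.32 ± 0.26 and 1.43 ± 0.25). Mmp9, a gelatinase, missed the threshold (1.39 ± 0.60, adjusted p = 0.0556) and passed with the replicate block (0.0339) and without pool 12 (0.00128).

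Complement and acute-phase genes were uneven across pools: the 11 tested averaged 7.54, 7.96, 7.56 and 7.52 at day 1 and 7.98, 9.58, 7.85 and 7.91 at day 4, with pool 15 highest on both days. Of 11 tested, 4 rose and 2 fell with Rosi, 5 falling without pool 15, 1 without pool 19 and 0 without pool 20, and 7 rose and 0 fell in vehicle (4 rises without pool 19). Orm1, orosomucoid, rose with Rosi (4.31 ± 0.46) and not in vehicle (-0.06 ± 0.46), and the changes differed (4.37 ± 0.65, adjusted p = 1.8e-06). Serpina3n (3.81 ± 0.86) and C4b (2.06 ± 0.37) rose in both (vehicle 4.05 ± 0.86† and 1.98 ± 0.37). Of 18 inflammatory genes 0 rose and 3 fell, 6 without the pool 15 array and 5 with the replicate block or without pool 15, and 1 rose without pool 12. Il1rn, the interleukin 1 receptor antagonist, fell by 1.78 ± 0.17, Il18 by 1.06 ± 0.23 and Tnf by 0.87 ± 0.26, with Il18 not called with only the arrays compared (0.0609). Saa3, serum amyloid A3, missed the threshold (-2.03 ± 1.04, adjusted p = 0.11) and passed without the pool 15 array (adjusted p = 0.00164).

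Genes of the amino acid and unfolded protein response rose in part. Of 19 tested, 11 rose and 2 fell (median 0.63), with 0 to 3 falls when 1 pool was left out and 0 with only the arrays compared or after cyclic loess. In vehicle 1 rose and 1 fell, neither count holding without pool 19 or 20 (0 and 0). Ddit3 (CHOP), a factor induced under stress, read 5.89, 5.67, 5.73 and 5.85 at day 1 and 6.81, 8.69, 8.67 and 9.35 at day 4 (2.60 ± 0.36, adjusted p = 9.2e-08). Pool 12 was lowest at day 4 and pool 20 highest, all above day 1. The pseudokinase Trib3 (2.81 ± 0.42), Asns, asparagine synthetase (1.70 ± 0.25), Chac1 (1.85 ± 0.35) and Psat1 (0.89 ± 0.15) rose, all of them targets of Atf4. Of the endoplasmic reticulum genes, the chaperone Hspa5 (BiP) gave 0.39 ± 0.11 (adjusted p = 0.00365, and 0.17 without pool 20), and the factor Xbp1 gave -0.03 ± 0.08 and did not pass. Dnajb9, a co-chaperone, rose by 1.70 ± 0.14.

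More genes of cholesterol synthesis rose than fell with Rosi, while those that changed in vehicle fell. Of 16 genes, 9 rose and 2 fell with Rosi (median 0.48) and 0 rose and 9 fell in vehicle (median -0.60), and 11 Rosi changes exceeded vehicle's by the interaction test, 7 without pool 19 and 6 without pool 20. The Rosi falls numbered 1 to 2 with 1 pool left out. With Rosi the 16 averaged 8.67, 8.67, 8.58 and 8.49 at day 1 and 9.18, 8.63, 9.16 and 9.16 at day 4, so the mean was higher at day 4 in pools 12, 19 and 20 and slightly lower in pool 15. Lss, lanosterol synthase, read 8.29, 8.47, 8.27 and 8.21 at day 1 and 10.07, 9.54, 10.32 and 10.33 at day 4 (1.76 ± 0.25, adjusted p = 1.4e-07). Vehicle went from 8.37, 8.37, 8.30 and 8.43 to 7.69, 7.73, 7.50 and 7.48 (-0.77 ± 0.25, adjusted p = 0.0347, and 0.0572 to 0.194 with any 1 pool left out), so that the arrays were highest with Rosi at day 4 (difference of the changes 2.52 ± 0.35, adjusted p = 7.63e-07). Cyp51 (0.95 ± 0.20) and the early enzyme Hmgcs1 (0.53 ± 0.15) also rose with Rosi and fell in vehicle (-1.06 ± 0.20 and -0.78 ± 0.15), whereas Msmo1 fell in both (-0.41 ± 0.11 with Rosi, -0.52 ± 0.11 in vehicle). Of 13 LXR targets 8 rose and 2 fell with Rosi (0 to 2 falls with 1 pool left out, 1 after cyclic loess or with only the arrays compared). The rises included Lpl, Scd1, Srebf1 and Nr1h3, which also belong to lists counted above. In vehicle 4 of the 13 rose and 0 fell (2 to 4 rises with 1 pool left out, 6 with the replicate block). By the interaction test 4 Rosi changes were higher than vehicle's and 2 lower. Apoc1 led with Rosi (2.41 ± 0.27), Abca1, the cholesterol exporter, rose by 0.55 ± 0.16 (adjusted p = 0.0546 without pool 20) and Abcg1 did not pass (-0.21 ± 0.24).

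Insulin and IGF signalling genes changed in both directions. Of 18 tested, 7 rose and 4 fell with Rosi, 2 falling without pool 20. Irs3, a rodent insulin receptor substrate (2.73 ± 0.28), Cav1, caveolin 1 (2.94 ± 0.25), Akt2 (0.85 ± 0.13) and Tbc1d4, a regulator of GLUT4 transport (1.27 ± 0.22), rose. Igfbp4 (-1.03 ± 0.14) and Igf1r (-1.03 ± 0.15) fell. All cultures received the glucocorticoid dexamethasone, and of 17 glucocorticoid targets 9 rose and 1 fell (2 falls with the replicate block or without pool 15, and 0 in a fit of the compared arrays alone). The list median was similar in the treatments, 0.35 with Rosi and 0.33 in vehicle, where 5 of the 17 rose and 0 fell. Those vehicle rises became 2 to 5 when 1 pool was dropped, 8 under the block and 0 if other groups were left out of the fit. By the interaction test 3 Rosi changes were higher than vehicle's and 2 lower (1 to 4 and 0 to 3 when 1 pool was dropped). With Rosi, Klf9 (1.06 ± 0.15) and Zbtb16 (1.17 ± 0.31) rose, Fkbp5 (0.16 ± 0.21) and Tsc22d3 (-0.06 ± 0.15) did not pass. Of 10 NRF2 targets 3 rose and 3 fell, with Me1 leading as given above and Nqo1, a quinone reductase, falling by 0.86 ± 0.14.

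In 79 genes the Rosi cultures rose while vehicle fell, and in 66 they fell while vehicle rose, each by its own test, out of 14911. Pkp2, plakophilin 2 of cell junctions, gave 1.0 ± 0.17 with Rosi and -1.64 ± 0.17 in vehicle. Trarg1, a protein of GLUT4 vesicles, gave 1.01 ± 0.20 and -0.70 ± 0.20, its vehicle call ending without pool 12 (0.131) or 15 (0.0909). Of the other kind, Cdh11, the cadherin of osteoblasts, gave -1.09 ± 0.23 and 0.75 ± 0.23, its vehicle call ending without pool 15 (0.0828), 19 (0.349) or 20 (0.254). The matrix protein Vit gave -0.86 ± 0.31 and 1.78 ± 0.31, its Rosi call ending without pool 19 (adjusted p = 0.0521) or 20 (0.0818). Pkp2 was chosen after its values were seen. The 8 largest differences of the changes in the positive direction were those of Elovl3 (6.75 ± 0.75), Cox8b (6.11 ± 0.73), Cyp2e1 (5.91 ± 0.45), Tmem45b (5.44 ± 0.60), Cidea (4.86 ± 0.68), Lrrc39 (4.47 ± 0.52), Adig (4.37 ± 0.56) and Orm1, given above. In the negative direction they were P2rx2 (-3.36 ± 0.56), C1qtnf3 (-3.00 ± 0.79), Cd5l (-2.99 ± 0.92), Mmp13 (-2.89 ± 0.55), Pi15 (-2.89 ± 0.76), Ccn3 (-2.88 ± 0.45), Panx3 (-2.88 ± 1.04) and Vit (-2.64 ± 0.44). Without pool 20 the differences of C1qtnf3 (0.0668), Cd5l (0.0731), Pi15 (0.0618) and Panx3 (0.246) did not pass, and without pool 19 those of Cd5l, Pi15 and Panx3 did not, nor that of Cd5l without pool 12. Ccn3 and C1qtnf3 rose in vehicle (2.21 ± 0.32 and 2.14 ± 0.56, the latter at 0.154 without pool 19 and 0.211 without pool 20) and did not pass with Rosi (-0.67 ± 0.32 and -0.87 ± 0.56). Ccn3 fell with only the arrays compared (0.00227), and P2rx2 fell with Rosi and did not pass in vehicle (0.39 ± 0.39).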

How the data were processed

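RNA of 52 cultures was hybridised to 1-colour Affymetrix Mouse Gene 2.0 ST arrays, in 13 groups of 4 arrays. The deposited table holds the authors' normalized log2 values per probe set. The submitters' processing notes name R 3.3.1 and oligo, and how background and normalization were handled is not given in the sources used here. Of 41345 probe sets 23521 were annotated to 1 gene, 1814 to several and 16010 to none. Of several probe sets of a gene the brightest over all arrays was used. A gene was tested where at least 4 arrays lay above the table's median of 4.05, which kept 14911 of 22180 genes.

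Group means of all 52 arrays were fitted in limma 3.58.1 under R 4.3.3, with 39 residual degrees of freedom and two-sided tests. P-values were adjusted by Benjamini-Hochberg over all genes tested, with a threshold of 0.05. The change over time in vehicle and the difference of the changes (interaction) came from the same fit. The calculation was tested on simulated data. Pool numbers in the labels mark the same pooled animals, so they pair the arrays. The main fit did not include the pool. Deviations from the group means of the day 1 and day 4 Rosi arrays correlated at 0.16, 0.11, -0.016 and 0.19 in pools 12, 15, 19 and 20. For the vehicle arrays the correlations were 0.17, 0.34, 0.21 and 0.25. Of the 52 arrays, 43 had deviations that correlated most, on average, with those of their own pool. The fit with the pool as a replicate block was an alternative, with a fit on only the arrays compared, cyclic loess, other filters, the mean of probe sets and each pool left out.

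Genes were named by rank (the 12 largest rises and falls past the threshold with 1 sign in 4 of 4 pools, and the 8 largest differences from vehicle in each direction), as members of a described list or as key genes. The groups, members and gene lists were chosen with earlier results of these data known. Promoter windows came from RefSeq, build GRCm38.p6.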

Additional observations from a re-analysis of the deposited data

Results flagged for a closer look

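In 12 of 86 groups of 4 values examined 1 array lay apart from the other 3 by Dixon's test. For a single group chance gives about 1 in 20. The groups are chosen genes and lists read on the same arrays and are not independent, so the count cannot be set against that rate. The day 4 Rosi array of pool 15 was the lowest for Cox8b (8.19), Cidea (6.45), Pparg (9.90), Fasn (11.53), Cyc1 (9.01), Bckdhb (9.10) and Ehhadh (7.02), and for the mean level of the adipocyte identity genes (9.44). It was the highest for the mean of the complement and acute-phase genes (9.58), as was the day 1 Rosi array of the same pool (7.96). Of pool 12, Mki67 was highest at day 4 (8.26) and Col1a1 lowest at day 1 (11.71) with Rosi.

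The change from day 1 to day 4 differed between Rosi and vehicle, by the test of the difference in limma, for 4480 genes. The Rosi change was the more positive for Elovl3 (6.75), Cox8b (6.11), Cyp2e1 (5.91), Tmem45b (5.44), Cidea (4.86), Lrrc39 (4.47), Adig (4.37), Orm1 (4.37), Chchd10 (3.63), Lss (2.52) and Pparg (0.65), each on the log2 scale. It was the more negative for P2rx2 (-3.36), C1qtnf3 (-3.00), Cd5l (-2.99), Mmp13 (-2.89), Pi15 (-2.89), Ccn3 (-2.88), Panx3 (-2.88), Vit (-2.64), Lepr (-2.45), Ctsk (-2.0) and Alpl (-1.87). The same held for Plk1 (-1.68), Ifitm5 (-1.68), Adipoq (-1.5), Dcstamp (-1.20), Cpt1a (-0.93), Dlx3 (-0.91) and Csf1r (-0.85). Only differences past the threshold are listed. Those of Pparg, Adipoq, Dlx3, Ifitm5, Lepr, Csf1r, C1qtnf3, Cd5l, Pi15 and Panx3 were not called in some fits with a pool left out, as given above.

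Among 8161 probe sets above the filter that are annotated to no gene or to several, 1549 passed the threshold with Rosi from day 1 to day 4. Of these, 773 rose and 776 fell, against 343 in vehicle.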

How the results depend on the processing

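The Rosi count of 6916 changed by less than 1.5 times under every alternative run: 5453 to 6783 with 1 pool left out (rises 2399 to 3019, falls 3007 to 3818), 5662 with the stricter filter, which tests fewer genes, 5851 with only the arrays compared, 7303 without the day 4 array of pool 15 (chosen after seeing the data) and 7453 with the replicate block, and no named gene reversed. Without that array 6550 of the 6916 calls were made in the same direction. The vehicle count of 1922 moved: 568 with only the arrays compared (210 rises, 358 falls), and 785 to 1558 with 1 pool left out (rises 216 to 662, falls 569 to 896). With the replicate block, by which the pools pair the arrays, vehicle calls numbered 2605 (1069 rises, 1536 falls). Differences from vehicle numbered 5106 without the day 4 Rosi array of pool 15 (2385 more positive, 2721 more negative) and 2406 to 4365 with 1 pool left out (1329 to 2127 more positive, 1077 to 2288 more negative). They numbered 5140 with the replicate block and 3585 with only the arrays compared. The cause was not tested. Of 237 named genes 18 lost the Rosi call under at least 1 alternative and 6 gained it. Apart from the block values given beside results, the block changed no Rosi call of a named gene. With 4 arrays a group small changes can be missed, and genes near the table median have uncertain sizes.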
